A study of Mus musculus with 4 samples.

Results

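The circadian clock genes described here were 10 genes: the clock activator *Arntl*, the repressors *Per1*, *Per2*, *Per3*, *Ciart*, *Nr1d1* and *Nr1d2*, and the clock-controlled output factors *Dbp*, *Tef* and *Hlf*. They were taken by gene symbol from the 18373 genes of the deposited table. The set was selected on the same contrast it is described with, because *Dbp* is among the largest decreases, so the fold changes and calls of the 10 genes are given as descriptions without p-values.

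Primary liver sinusoidal endothelial cells (LSEC), the fenestrated endothelium of the liver capillaries, were isolated from livers of 8-week-old Balb/c mice by perfusion with pronase and collagenase per the labels, or with collagenase followed by selection with CD146 beads per the methods. The cells were cultured for 24 h and then given siRNA for 48 h, either a negative control (NC, 2 libraries) or siRNA against the long noncoding RNA *Airn* (si*Airn*, 2 libraries), and RNA was sequenced as single 50-base reads from cells labelled day 3. Both groups therefore carried a transfected siRNA, and untransfected cells were not analysed here. The methods speak of separate siRNAs against *Airn*, while the titles of both si*Airn* libraries read si*Airn*1, so it is not certain whether 1 siRNA or several lie behind the contrast. The labels number the libraries as biological replicates 1 and 2, but do not say whether they came from separate animals or whether livers were pooled, and they give no hour of harvest.

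In the mammalian clock, the proteins of *Arntl* (BMAL1) and *Clock* pair and bind E-box sequences, which drives transcription of the Per, Cry, Nr1d, *Ciart*, *Dbp* and *Tef* genes. PER and CRY proteins then repress their own activators, and the nuclear receptors NR1D1 and NR1D2 (REV-ERBs) repress *Arntl* through RORE sequences that ROR receptors activate. DBP, TEF and HLF are PAR bZIP factors that bind D-box sequences, where NFIL3 opposes them, and in liver they are best known for the daily rhythm of detoxification genes.

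The sequence elements named above were looked for in RefSeq promoter windows (GRCm38.p6) of 300 bases, 250 before and 50 after each annotated start. RefSeq windows were present for 9 of the 10 genes, 12 windows in all, and *Per2* is named only. The upstream 250 bases of 4 windows are printed to show a window with several E-boxes (*Ciart*), the window with exact D-boxes (*Per3*), a window with a single E-box (*Per1*, its first start) and the window of the gene with the largest difference (*Dbp*). Capitals mark exact matches to the E-box in *Ciart* and *Per1* and to the D-box in *Per3*, and each sequence is written 5′ to 3′ on the strand of the gene.
Ciart, chr3:95882229-95882478, minus strand: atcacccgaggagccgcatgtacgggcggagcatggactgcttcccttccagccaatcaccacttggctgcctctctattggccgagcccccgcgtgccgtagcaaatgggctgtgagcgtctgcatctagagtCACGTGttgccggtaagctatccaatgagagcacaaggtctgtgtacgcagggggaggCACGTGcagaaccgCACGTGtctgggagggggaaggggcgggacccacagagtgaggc
Per3, chr4:151044666-151044915, minus strand: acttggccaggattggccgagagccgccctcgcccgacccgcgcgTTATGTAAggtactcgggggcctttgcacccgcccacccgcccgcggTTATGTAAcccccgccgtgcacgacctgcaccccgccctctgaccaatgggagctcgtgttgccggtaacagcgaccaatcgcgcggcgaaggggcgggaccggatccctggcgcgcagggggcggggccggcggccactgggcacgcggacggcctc
Per1, chr11:69098699-69098948, plus strand: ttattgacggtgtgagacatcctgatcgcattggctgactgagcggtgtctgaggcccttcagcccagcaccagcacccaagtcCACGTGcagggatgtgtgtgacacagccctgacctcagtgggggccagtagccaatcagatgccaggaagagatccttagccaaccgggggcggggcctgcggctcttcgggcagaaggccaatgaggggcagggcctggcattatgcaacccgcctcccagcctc
Dbp, chr7:45704997-45705246, plus strand: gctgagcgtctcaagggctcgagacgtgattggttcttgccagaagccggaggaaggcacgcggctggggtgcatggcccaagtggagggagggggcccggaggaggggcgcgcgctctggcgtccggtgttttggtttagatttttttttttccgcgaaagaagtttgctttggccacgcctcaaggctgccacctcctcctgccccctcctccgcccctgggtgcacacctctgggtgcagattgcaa

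Each of 4 patterns was searched on both strands: the E-box CACGTG, the D-box TTATGTAA or TTACGTAA, the cAMP response element (CRE) TGACGTCA, and the RORE. The E-box was present in 7.15% of all 32851 windows and in 4 of the 12 windows of the clock genes. *Ciart* had 3 copies, whose first bases lie 116, 58 and 44 bases before the start, *Per1* had 1 copy that begins 166 bases before its first start, and both windows of *Tef* had 1 copy. The D-box was present in 1.06% of all windows and in 1 window here, that of *Per3*, which had 2 copies that begin 205 and 158 bases before the start. *Hlf* had a CRE (1.79% of all windows) that ends 2 bases before its start. The RORE (0.384% of all windows) was found only after the second start of *Arntl*, at chr7:113207537-113207547 on the plus strand, and its letters are shown because it is the only RORE match in the 12 windows.
Arntl, 27 to 37 bases after its second start: AAAGTAGGTCA

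No exact match to any of the searched patterns was found in the windows of *Dbp*, *Nr1d1* or *Nr1d2*, which says only that these letters are not in these windows. A match is a string of letters and was not tested as a binding site. Annotated starts differ between sources, and not only for *Dbp*. In GENCODE M21 *Dbp* begins at position 45705088 of chromosome 7, inside the RefSeq window printed above. *Per1* begins there at position 69095217 of chromosome 11 and *Tef* at 81802421 of chromosome 15. Both positions lie before the first RefSeq window of the gene, so the E-boxes found in these windows lie within the GENCODE genes.

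**Figure D1:**
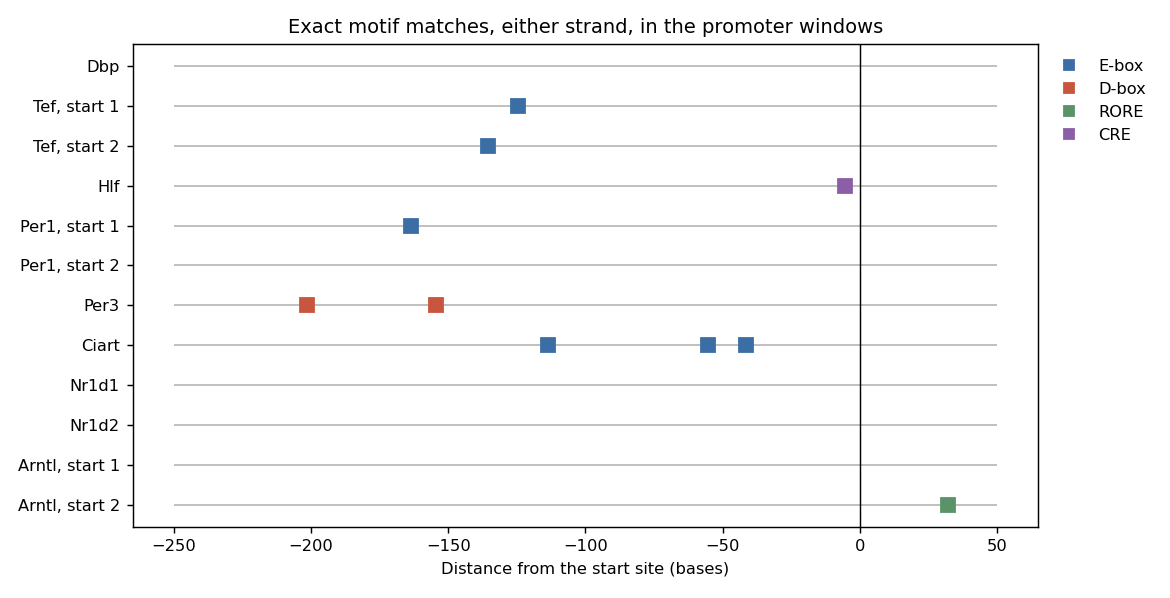
Exact matches to each pattern (coloured squares, either strand) along the promoter windows of 9 clock genes, with the distance from the annotated start in bases on the x axis and 1 line per window. *Ciart* carries 3 E-boxes and *Per3* carries 2 D-boxes, while the lines of *Dbp*, *Nr1d1* and *Nr1d2* are empty.

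*Dbp* was about 3-fold lower in the libraries labelled si*Airn*, while none of the other 9 clock genes was lower beyond the spread between libraries. 6 of them (*Hlf*, *Per1*, *Per2*, *Ciart*, *Nr1d1* and *Nr1d2*) had both si*Airn* libraries above both NC libraries, by small amounts except for the scarcely detected *Hlf*. The groups were separate in this direction for 30.9% of all genes tested. Values are given as CPM (read counts scaled to a common library size), in the order NC replicates 1 and 2, then si*Airn* replicates 1 and 2, and differences as log2 fold change of si*Airn* over NC with its standard error.

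Among the output factors, *Dbp* measured 15.5 and 18.2 CPM in the NC libraries and 5.20 and 5.26 CPM in the si*Airn* libraries. The estimated read counts behind these levels were 265 and 329 against 93.9 and 93.35. The groups did not overlap, and the si*Airn* libraries differed from each other far less than the NC libraries did. The mean fell from 16.8 ± 1.92 to 5.23 ± 0.0407 CPM (SD, n = 2 each), which is 31.1% of the NC level (3.22-fold lower), with a log2 fold change of -1.69 (SE 0.14). Of the 13628 genes tested, 30, *Dbp* included, had a log2 fold change as low or lower.

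*Tef*, a close relative of *Dbp*, did not share this difference. It measured 61.9 and 60.3 CPM in NC and 69.2 and 61.2 CPM in si*Airn*, so that the groups overlapped, with a log2 fold change of 0.09 (SE 0.08). That value was 0.00 with si*Airn* replicate 1 left out and 0.18 with si*Airn* replicate 2 left out. *Hlf*, the third PAR bZIP gene, was barely detected. Its estimated counts were 4, 11, 15 and 17, or 0.233, 0.608, 0.830 and 0.961 CPM, where 3 counts are worth between 0.166 and 0.175 CPM. Both si*Airn* libraries lay above both NC libraries, but the log2 fold change of 1.06 had an SE of 0.54, rests on few reads and moved to 0.55 with NC replicate 1 left out and 1.91 with NC replicate 2 left out.

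The Per genes encode the repressors that close the main feedback loop. *Per1*, which also answers quickly to light, cAMP and glucocorticoid signals, measured 26.4 and 26.3 CPM in NC and 31.8 and 32.2 CPM in si*Airn*, with a difference of 0.28 on the log2 scale (SE 0.08). *Per2* measured 8.05 and 8.35 CPM in NC and 11.2 and 11.1 CPM in si*Airn*, with a log2 difference of 0.44 (SE 0.13). For both genes the groups were separate and the libraries within a group nearly equal. *Per3*, whose loss disturbs the core rhythm less than that of its paralogues, measured 12 and 10.8 CPM in NC and 13.2 and 11.8 CPM in si*Airn*, and here the groups overlapped (0.13, SE 0.13). Its log2 fold change ran from 0.05 to 0.21 with a library left out. *Ciart* (CHRONO), a repressor that binds BMAL1, measured 6.77 and 5.36 CPM in NC and 7.30 and 7.46 CPM in si*Airn*, with separate groups and a log2 fold change of 0.28 (SE 0.17). The gap between the NC libraries of *Ciart* was wider than the gap between their mean and the lower si*Airn* library, and the log2 fold change was 0.46 with NC replicate 1 left out and 0.12 with NC replicate 2 left out.

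The nuclear receptors were the most abundant of the 10 genes. *Nr1d1* measured 66.1 and 66.7 CPM in NC and 74.9 and 69.9 CPM in si*Airn*, with a log2 difference of 0.13 (SE 0.07). With a library left out the difference ran from 0.07 to 0.17, lowest for si*Airn* replicate 1. *Nr1d2* measured 79.4 and 72.9 CPM in NC and 95.9 and 94.0 CPM in si*Airn*, with a log2 difference of 0.32 (SE 0.07), or 1.25-fold higher. In both the groups were separate, and the gap was wider for *Nr1d2*. *Arntl*, the target of both receptors and the partner of *Clock*, measured 16.5 and 19.2 CPM in NC and 16.9 and 16.7 CPM in si*Airn*. Both si*Airn* values fell within the range of the NC values, and the log2 fold change was -0.09 (SE 0.11), or 0.02 without NC replicate 2.

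**Figure D2:**
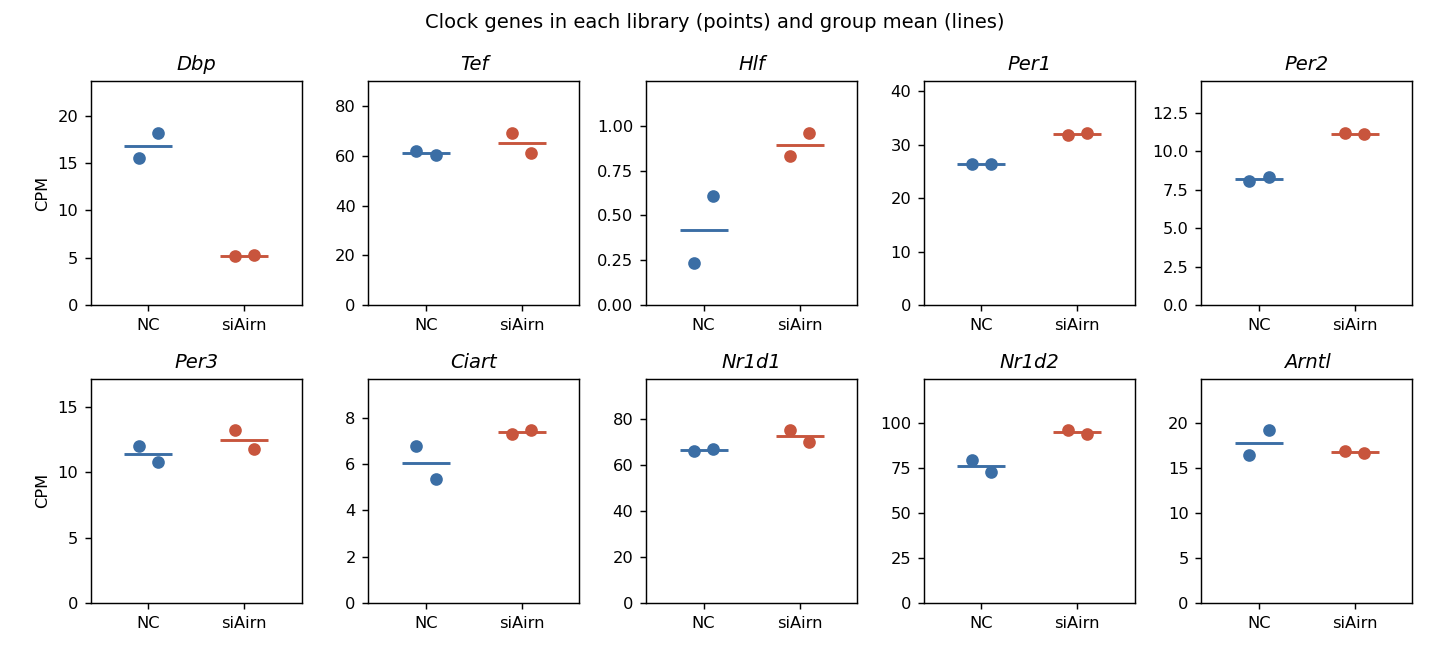
CPM of each clock gene (y axis, from 0, with its own scale for each gene) in the NC and si*Airn* libraries; points are libraries and horizontal lines are means of 2. For *Dbp* the si*Airn* points sit at 5.20 and 5.26 CPM, below both NC points, while 6 genes have both si*Airn* points above both NC points. Of all genes tested, 30.9% lie higher in this way and 31.9% lower.

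With edgeR's quasi-likelihood test and Benjamini-Hochberg adjustment over all 13628 genes, 2 of the 10 clock genes had an adjusted p under 0.05, *Dbp* (lower) and *Nr1d2* (higher), and 8 did not. Across all genes tested 16.8% were called, 8.56% lower and 8.27% higher, and since the set was picked from this contrast nothing is read from its share. At the study's threshold, a fold change over 1.4 with an unadjusted p under 0.05, *Dbp* alone of the 10 was called, where 9.96% of all genes were. Groups that did not overlap were found for 6 clock genes in the higher direction, where 30.9% of all genes had such groups, and for 1 in the lower direction, where 31.9% had. The median log2 fold change was 0.21 over the 10 genes and 0.28 over the 9 without *Dbp*, beside 0.00 over all genes tested.

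The 12 alternatives run reuse the libraries from which *Dbp* was picked for its decrease, so its values under them are a description. *Dbp* kept its direction under each of the 12 and stayed called in 11 of them. The exception was the fit without NC replicate 2, in which *Dbp*'s log2 fold change was -1.56 and edgeR called 0 genes of the whole table, although 4 of the 10 clock genes and 3075 of all genes had an unadjusted p under 0.05. The call of *Nr1d2* was lost when any single library was left out, with log2 fold changes of 0.38 when NC replicate 1 was left out, 0.26 for NC replicate 2, 0.30 for si*Airn* replicate 1 and 0.33 for si*Airn* replicate 2, and was also lost with a correction for GC content and length (0.18). *Per1* was called with that correction (0.34).

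Since *Dbp* was picked for its decrease, its level relative to the other clock genes in each library restates that choice and is given as a description. Levels of different genes were compared per length, in FPKM (read counts scaled by transcript length and library total). The ratio of *Dbp* to *Tef* was 0.701 and 0.849 in the NC libraries but 0.216 and 0.250 after si*Airn*, and that of *Dbp* to *Per2* was 7.10 and 8.20 in NC but 1.81 and 1.94 after si*Airn*. *Dbp* exceeded *Arntl* 1.75 and 1.83 times in NC, but stood at 0.598 and 0.604 of *Arntl* in si*Airn*. Against each of the 8 other clock genes apart from *Hlf*, the *Dbp* ratio was lower in both si*Airn* libraries than in either NC library.

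**Figure D3:**
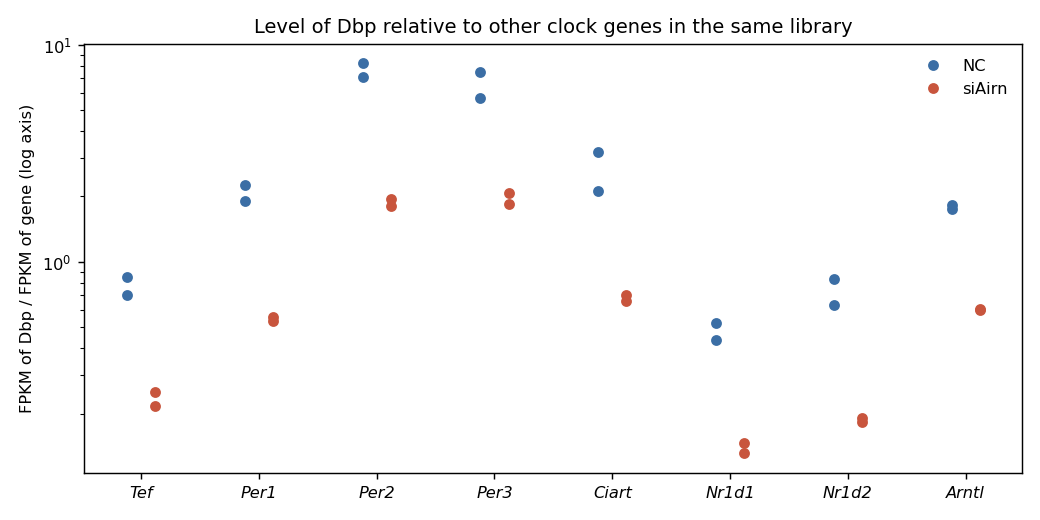
FPKM of *Dbp* divided by the FPKM of 8 other clock genes in the same library (y axis, log scale), 1 point per library, NC and si*Airn* side by side. In each of the 8 pairs the si*Airn* points lie below the NC points, for example 0.598 and 0.604 against 1.75 and 1.83 for *Arntl*.

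By level in NC, *Nr1d1* stood first at 23.9 ± 0.297 FPKM (SD, n = 2 for all levels), ahead of *Nr1d2* at 15.8 ± 1.08 and *Tef* at 14.8 ± 0.226 FPKM. *Nr1d2* and *Tef* differed by less than the SD of *Nr1d2*, although their values did not overlap. *Dbp* came next at 11.5 ± 1.38 FPKM, close to the middle of all tested genes (percentile 53.5). Below it lay *Arntl* at 6.41 ± 0.552, *Per1* at 5.51 ± 0.00 and *Ciart* at 4.44 ± 0.778 FPKM. *Per3* at 1.75 ± 0.134 and *Per2* at 1.5 ± 0.0283 FPKM were low, and *Hlf* at 0.075 ± 0.0495 FPKM was at percentile 0.492 of the tested genes. In si*Airn*, *Dbp* at 3.74 ± 0.0566 FPKM dropped 3 places, below *Per1* (6.85 ± 0.0778), *Arntl* (6.22 ± 0.0495) and *Ciart* (5.49 ± 0.156). The other genes kept their order except for *Per1* and *Arntl*, and *Per2* and *Per3*, which changed places. The si*Airn* values of *Per2* and *Per3* overlapped, so their exchange lies within the spread between libraries.

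**Figure D4:**
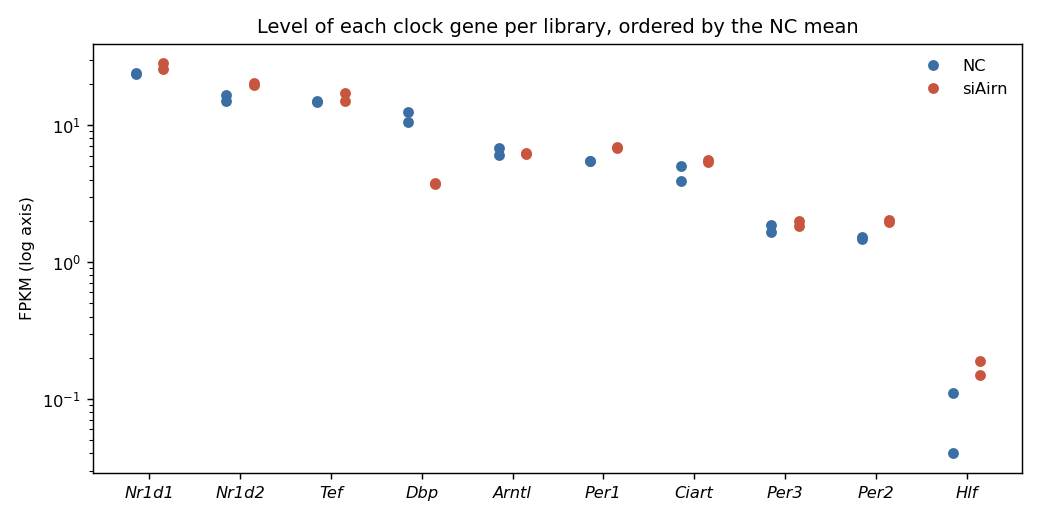
FPKM of the 10 clock genes (y axis, log scale) in each library, ordered from left to right by the NC mean. *Dbp* drops from 11.5 FPKM in NC to 3.74 FPKM in si*Airn*, past *Arntl*, *Per1* and *Ciart*, while the others, apart from the rare *Hlf*, move little.

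The spread between libraries of a group differed from gene to gene. *Dbp*'s NC libraries differed by -0.23 on the log2 scale (replicate 1 minus replicate 2), *Arntl*'s by -0.21 and *Ciart*'s by 0.31, while their si*Airn* libraries differed by -0.01, 0.01 and -0.03. *Tef* (0.04 in NC, 0.18 in si*Airn*) and *Nr1d1* (-0.01 and 0.10) were wider in si*Airn*, and *Per3* was equal (0.15 in both). Without *Hlf*, the clock genes had a median size of this difference of 0.12 in NC and 0.03 in si*Airn*, beside 0.09 and 0.10 over all genes of at least 5 CPM.

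*Dbp* lies at chr7:45705088-45710203 on the plus strand (GRCm38, GENCODE M21), and *Sphk2*, on the minus strand, covers 18.01% of its exonic bases with its own exons. The sources used here do not say whether counting used strand, so reads from these bases cannot be assigned to either gene with certainty. *Sphk2*, which encodes a sphingosine kinase, had a log2 fold change of -0.16 (SE 0.07, edgeR adjusted p = 0.155). The genes within 20 kb were looked at after *Dbp*'s values were seen. *Car11*, which ends 406 bases upstream of *Dbp* on the same strand, had estimated counts of 50, 62, 36 and 22 and a log2 fold change of -0.97 (SE 0.32, edgeR adjusted p = 0.0784). *Sec1* had the same log2 fold change of -0.97 (SE 0.30, edgeR adjusted p = 0.0658), and *Rpl18*, a ribosomal protein gene, -0.12 (edgeR adjusted p = 0.291). *Car11* and *Sec1* passed the study's threshold, as did 9.96% of all genes. *Car11*, *Sec1*, *Sphk2* and *Rpl18* had groups that did not overlap, lower in si*Airn*, as had 31.9% of all genes. *Ntn5*, *Fam83e*, *Spaca4* and *Sult2b1* were too low to be tested. Of the other clock genes, *Nr1d1* had 8.55% of its exonic bases under *Thra*, 2.45% of *Tef*'s lay under *Gm17597* and 0.44% of *Arntl*'s under *Gm45355*, and 6 had no such overlap.

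Base composition and transcript length moved with the contrast. Over all genes with an annotated transcript, GC content and log2 fold change were related with a Spearman rho of -0.333, and transcript length and log2 fold change with 0.364, descriptions across genes of the same 4 libraries. The longest transcripts of the clock genes ranged from 41.8% GC (*Nr1d2*) to 61.6% GC (*Dbp*), and genes within 2 percentage points of *Dbp* had a median log2 fold change of -0.16, those near *Per1* -0.15 and those near *Nr1d2* 0.13. With offsets for GC content and length in the fit, the log2 fold change was -1.48 for *Dbp*, 0.40 for *Per2* and 0.25 for *Nr1d1*.

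A further 16 genes of the core clock give the pathway around the 10, and 13 of them passed the filter on low counts. By edgeR's quasi-likelihood test adjusted over all genes, 2 rose, 2 fell and 9 did not pass, with a median log2 fold change of 0.07, beside 8.27% of all genes called higher and 8.56% called lower. *Clock*, the partner of *Arntl*, rose from 72.4 ± 2.48 to 92.1 ± 5.25 CPM (0.35, SE 0.07, edgeR adjusted p = 0.0223), and *Cry2*, the co-repressor of the Per proteins, from 17.3 ± 0.139 to 23.3 ± 1.23 CPM (0.43, SE 0.10, adjusted p = 0.0281). *Timeless*, better known in mammals for its work at replication forks, fell from 31.2 ± 0.595 to 19.6 ± 1.16 CPM (-0.67, SE 0.09, adjusted p = 0.00855), and *Csnk1e*, a kinase that marks PER proteins for degradation, from 216 ± 10.4 to 175 ± 8.38 CPM (-0.30, SE 0.07, adjusted p = 0.0300). For these 4 genes the groups did not overlap, as for 30.9% of all genes in the higher and 31.9% in the lower direction.

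Each of these calls was lost in some fits with a single library left out. Such fits leave 1 library in a group, and those without an NC library called few or no genes of the whole table. A call lost without an NC library is therefore not particular to these genes. *Clock* (0.29), *Cry2* (0.38) and *Csnk1e* (-0.25) also lost their calls without si*Airn* replicate 2, to which this does not apply. Over the fits without a library, the log2 fold changes were 0.29 to 0.40 for *Clock* and 0.38 to 0.48 for *Cry2*. They were -0.73 to -0.61 for *Timeless* and -0.35 to -0.25 for *Csnk1e*. Under the GC and length offsets the value for *Clock* was 0.03 and for *Csnk1e* -0.19, neither called, while *Cry2* (0.50) and *Timeless* (-0.64) stayed called. *Cry2* also lost its call with DESeq2 (0.43), and *Csnk1e* lost its with limma on the FPKM (-0.27 with either pseudocount).

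The other tested core clock genes did not pass the test. *Nfil3*, which competes with *Dbp* for D-boxes, measured 25.4 and 33.8 CPM in NC and 37.5 and 51.3 CPM in si*Airn* (0.58, SE 0.18, edgeR adjusted p = 0.0686), and it was called in 5 of the 12 alternatives, among them DESeq2 (0.58), the GC and length offsets (0.73) and the fit without si*Airn* replicate 1 (0.79). Its value was 0.39 with NC replicate 1 left out and 0.34 with si*Airn* replicate 2 left out. *Npas2*, a substitute for *Clock*, had a log2 fold change of 0.54 (adjusted p = 0.283; 0.14 to 0.86 with a library left out, lowest for si*Airn* replicate 2 and highest for si*Airn* replicate 1), *Cry1* 0.06 (adjusted p = 0.715) and *Rora*, the activator at ROREs, -0.12 (adjusted p = 0.397), which was -0.45 and called with the offsets. The E-box repressors *Bhlhe40* (0.21, adjusted p = 0.278) and *Bhlhe41* (0.29, adjusted p = 0.280) also did not pass, though *Bhlhe40* was called at 0.39 without si*Airn* replicate 1. With si*Airn* replicate 2 left out *Bhlhe40* was at 0.02, and *Bhlhe41* ranged from 0.09 (without si*Airn* replicate 1) to 0.46 (without si*Airn* replicate 2). The remaining genes were those of protein turnover, *Csnk1d* (-0.13), *Fbxw11* (0.07) and *Btrc* (-0.09), all with an edgeR adjusted p above 0.1. *Arntl2*, *Rorb* and *Fbxl21* were too low to be tested.

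**Figure D5:**
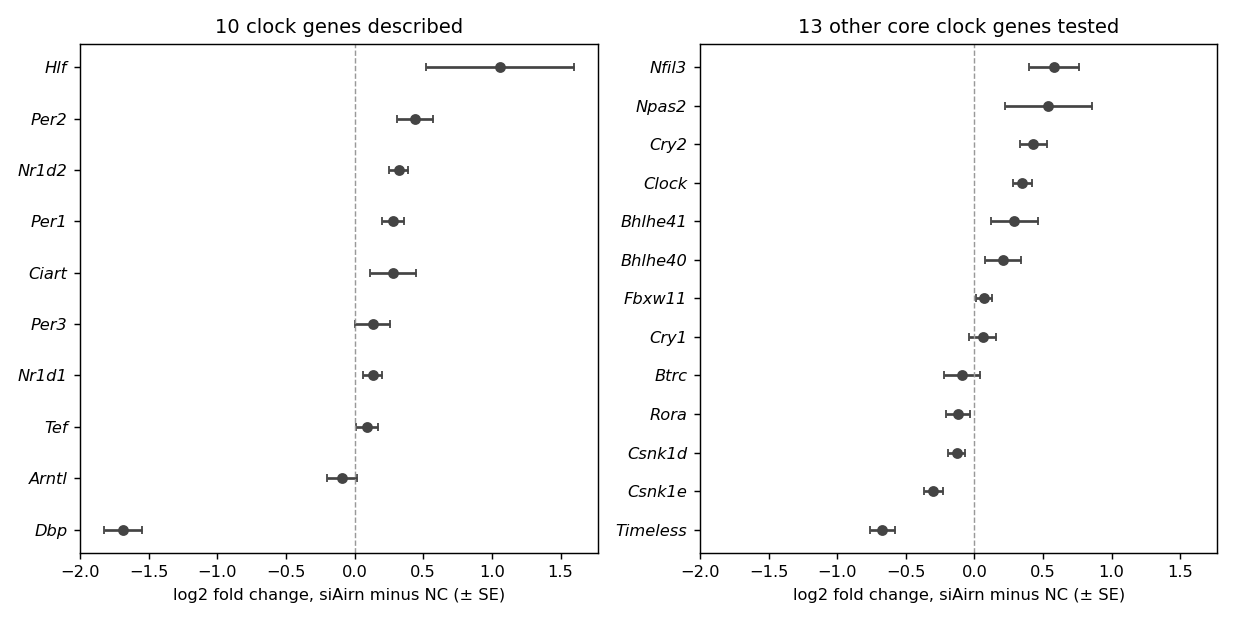
Log2 fold change of si*Airn* over NC with its standard error (x axis) for the 10 clock genes (left) and for 13 further core clock genes (right), each ordered by value. *Dbp* at -1.69 stands far to the left of the others, of which *Timeless* at -0.67 is the nearest.

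Genes that the PAR bZIP factors are known to drive in liver were in part at or near 0 CPM in these cells. Of 8 listed, 4 passed the filter and edgeR called 0, with 0 also at an unadjusted p under 0.05 and 0 called by DESeq2 or limma, beside 16.8% of all genes called and 4631 of 13628 at an unadjusted p under 0.05. *Por*, the electron donor of microsomal cytochromes P450, measured 192 and 195 CPM in NC and 178 and 207 CPM in si*Airn* (-0.01, edgeR adjusted p = 0.955), and *Alas1*, which starts haem synthesis, 70.6 and 72.1 against 66.8 and 67.3 CPM (-0.09, adjusted p = 0.361). *Ces3a* and *Cyp2b10* each had a log2 fold change of 0.65 (adjusted p = 0.230 and 0.367), and *Ces3a* was called at 1.01 by edgeR when si*Airn* replicate 1 was left out (adjusted p = 0.0266). 

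Of 16 further clock output genes, 2 rose and 0 fell by edgeR, with a median log2 fold change of 0.09 and 6 at an unadjusted p under 0.05. Over all genes 16.8% were called and 4631 of 13628 had an unadjusted p under 0.05. *Klf10*, a zinc finger repressor, rose from 21.1 ± 1.36 to 28.5 ± 1.74 CPM (0.43, edgeR adjusted p = 0.0286), and *Pdk4*, which holds back pyruvate oxidation, from 90.0 ± 4.18 to 111 ± 7.84 CPM (0.31, adjusted p = 0.0357). *Noct*, a clock-controlled phosphatase gene, had a value of 0.16 (adjusted p = 0.199), and *Nampt*, the rate-limiting enzyme of NAD salvage, 0.00. The calls in this list were lost with NC replicate 1, NC replicate 2 or si*Airn* replicate 2 left out. Such fits leave 1 library in a group. Without an NC library edgeR called few or no genes of the whole table, so those losses are not particular to this list.

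Of 15 genes that carry or answer glucocorticoid or cAMP signals, routes by which the Per genes are set, 1 rose and 1 fell, a share close to the 16.8% of all genes. *Errfi1* rose from 135 ± 1.36 to 177 ± 13.1 CPM (0.38, edgeR adjusted p = 0.0179), and *Dusp1*, a phosphatase of MAP kinases, fell from 183 ± 2.75 to 140 ± 1.71 CPM (-0.38, adjusted p = 0.0116). *Tsc22d3* (0.08, adjusted p = 0.603) and *Fkbp5* (-0.15, adjusted p = 0.270), both classical glucocorticoid targets, did not pass. With either NC library left out, the calls by edgeR were lost here too. Those fits leave 1 library in a group and called few or no genes of the whole table. The loss is therefore not particular to this list.

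Over the tested genes outside the 10, those with an exact D-box in a promoter window numbered 84, with a median log2 fold change of 0.03, 10 called higher and 8 lower (21.4% called). Those with an E-box numbered 1185, with a median of 0.01, 108 called higher and 106 lower (18.1% called). Those with a CRE numbered 355 (median 0.02, 15.8% called) and those with a RORE 18 (median -0.07, 1 higher and 4 lower, 27.8% called). Over all genes tested the median was 0.00 and 16.8% were called, and the differences from these shares were not tested.

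The genes whose pattern over the 4 libraries was most like that of *Dbp*, by the root mean square distance between log2 levels centred on each gene's mean, were *A2m* (0.116), *Ly6a* (0.125), *Igfbp3* (0.125), *Aqp1* (0.150) and *Hdc* (0.159), out of 10745 genes of at least 5 CPM. The 10 clock genes were left out of this search, so none of them could appear. The 5 genes were chosen for likeness to *Dbp*, so their log2 fold changes, between -1.51 and -1.38, follow from that choice. *Aqp1* was the most abundant, with 373 and 363 CPM in NC and 146 and 121 CPM in si*Airn*. *A2m* came closest to the level of *Dbp*, with 8.17 and 9.62 CPM in NC and 3.21 and 3.05 CPM in si*Airn*.

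Library totals were between 17308382 and 18371959 estimated counts. *Airn*, the target of the siRNA, did not fall after si*Airn* as the labels would have it: its estimated counts were 7 and 3 in the NC libraries against 11 and 9, too low to be tested, so the RNA that checks the labels does not separate the groups in the labelled direction. Markers of LSEC were detected throughout, *Stab2*, *Lyve1*, *Cdh5* and *Pecam1* among them, and 11 of 12 were lower in si*Airn*, 9 of them called by edgeR, with summed levels of 7342 to 7907 CPM in NC and 5020 to 5822 CPM in si*Airn*. Of the Kupffer cell and macrophage markers, 6 of 10 were called lower, with sums of 226 to 275 CPM in NC against 144 to 176 CPM. Of the stellate cell and fibroblast markers, 3 of 10 (*Acta2*, *Col3a1* and *Reln*) were called higher and 7 did not pass, with sums of 1110 to 1314 against 1360 to 1775 CPM. Of 9 hepatocyte markers tested, 1 (*Apoa1*) was called higher, and the sums of 618 to 788 against 858 to 1119 CPM were mostly *Alb* (0.50, edgeR adjusted p = 0.0598). Beside these counts, 8.56% of all genes were called lower and 8.27% higher. Lymphocyte markers (2 of 8 tested) summed to 3.70 to 5.43 CPM and cholangiocyte markers to 30.4 to 34.1 CPM in all 4 libraries, with 0 called by edgeR and 1 in each list at an unadjusted p under 0.05. No listed marker lay at 0 in any library. The part of these other cells in the values of the 10 clock genes was not tested, and in bulk libraries fewer cells of a type and less RNA per cell cannot be told apart.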

How the data were processed

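RNA-seq libraries of primary LSEC were analysed, 2 of the NC group and 2 of the si*Airn* group, grouped and numbered by their labels. The estimated counts that the authors deposited are not normalized, and not all of them are whole numbers. The other deposited values carry no unit and were taken for FPKM of the authors from how they follow count, length and total. The submitters' processing notes name BWA, Bowtie2, RSEM and the build hg19, a human build although the samples are mouse, so the annotation behind the counts is not certain. The use of strand is not given in the sources used here. Group means deposited by the authors were not used.

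Rounded counts entered edgeR 4.0.16 (R 4.3.3): TMM scaling (factors 0.985 to 1.017), filterByExpr, the quasi-likelihood test of si*Airn* against NC with no covariate, and Benjamini-Hochberg adjustment over 13628 genes. Standard errors are those implied by the F statistic. CPM were computed from the counts and TMM factors. The alternatives were upper-quartile factors, no filter beyond 1 count, the likelihood-ratio test, a replicate block, DESeq2 1.42.0, limma 3.58.1 on log2(FPKM + 1) and log2(FPKM + 0.1) for genes of at least 1 FPKM, offsets for GC content and length (12905 genes, 94.7%), and leaving out each library. The fit was tested on simulated counts, drawn independently with the same dispersion for every gene. The simulation held no trend with GC content or length and no link between same-numbered libraries. It therefore does not cover those features of the data. With 2 libraries in each group the smallest exact permutation p is 0.333, so no single-gene permutation test was used. If the libraries are not separate cultures or animals, p-values measure only the spread between these libraries, which may be technical. Replicates differed beyond counting noise (chi-square per gene 6.37 in NC and 8.51 in si*Airn*).

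The 10 genes and the gene lists were chosen with earlier results of these data known. Named were the 10 genes, the other tested core clock genes, output, PAR bZIP target and input genes with an adjusted p under 0.05 or a mean of at least 20 CPM (summarised where many), the 5 genes nearest *Dbp*, and *Airn*. *Car11*, *Sphk2* and the other neighbours of *Dbp*, *Ces3a*, *Cyp2b10* and the overlapping genes were named after their values were seen. Gene positions are from GENCODE M21 and promoter windows from RefSeq. Some genes of the core clock were left out of these lists and are not reported here.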

Additional observations from a re-analysis of the deposited data

How the results depend on the processing

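Of the 10 clock genes, the number called was 4 with edgeR's likelihood-ratio test and 4 with a replicate block (*Per1* and *Per2* in addition, both times), and between 0 and 1 when a library was left out. All genes called numbered 3140 with the likelihood-ratio test, 4841 with the block and 1042 with GC and length offsets, and between 0 (without NC replicate 2; 3075 at an unadjusted p under 0.05) and 2332 when a library was left out, with 35 without NC replicate 1 and 1384 without si*Airn* replicate 2. Those fits leave 1 library in a group, which is assumed to vary like the others. Output genes of the circadian clock called were 4 with the likelihood-ratio test, 6 with the block and 1 with the offsets. Glucocorticoid and cAMP input genes called were 7 with the block. In both lists the number also moved in some fits with a library left out. The other core clock genes called ranged from 0 to 6 without a library, and their median was 0.24 with no filter beyond 1 count and 0.25 with DESeq2, where all 16 listed genes enter. *Cry1* (-0.03 to 0.14) and *Btrc* (-0.28 to 0.08) turned sign without si*Airn* replicate 1, at -0.03 and 0.08, and *Arntl* without NC replicate 2, at 0.02. With the block 1 of the 4 tested PAR bZIP target genes (*Ces3a*) was called. Same-numbered libraries deviated from their group means together with a correlation of 0.381, but with 2 pairs and no shared source in the labels they share only a number. *Dbp* ranged from -1.80 to -1.39 over the 12 alternatives, and the median of the 10 genes from 0.13 to 0.25. Apart from where values above show it, the cause of these changes was not tested. Depth limits *Hlf*, at 4 to 17 counts, and *Airn*, at 3 to 11.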
